A study of Mus musculus with 15 samples.

Results

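The effect of diabetes was examined in the aortas of mice labelled as lacking both apolipoprotein E (Apoe) and RAGE, a receptor for glycated proteins encoded by Ager. The comparison took every array labelled diabetic Apoe/RAGE null, 4 arrays with the replicate numbers 9 to 12, against every array labelled non-diabetic Apoe/RAGE null, 3 arrays numbered 13 to 15, which together are 7 of the 15 arrays in the series. All were male C57BL/6 mice killed at 9 weeks of age, and RNA came from the whole aorta between its root and its bifurcation. At 6 weeks the diabetic mice had received 5 daily injections of streptozotocin at 65 mg/kg, which destroys insulin-producing beta cells, and the others 5 injections of citrate buffer. By the labels, diabetic and control mice carried both deletions alike, and the double null mice came from a laboratory colony, whereas the 8 Apoe null mice of the series (4 diabetic, 4 not) came from elsewhere. Another non-diabetic sample was lost when its labelled RNA could not be made, per the series' design text. Each array holds 1 mouse, so p-values measure the spread between mice as labelled. Blood glucose, plasma lipids and lesion size are not used here.

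RAGE (receptor for advanced glycation end products) sits on the cell surface, where it binds glycated proteins and several S100 proteins, among them S100A8 and S100A9 of neutrophils, and is best known in vessels for driving inflammation in diabetes. Mice without Apoe carry cholesterol-rich remnant particles in plasma and develop atherosclerosis. Insulin normally raises the transcription of fatty acid synthesis genes through SREBP1, and its loss lowers them in liver and fat. A whole aorta also carries the fat, nerves, lymph nodes, muscle and airway tissue that cling to it at dissection, and in whole-tissue RNA, more cells of a type and more RNA per cell cannot be told apart.

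Several arrays stood apart before any comparison was made. Levels are log2 values, on which a difference of 1 is a 2-fold difference. Decr2, a peroxisomal reductase gene on chromosome 17, the chromosome of Ager, read 5.19 and 5.10 in diabetic replicates 9 and 10. It read 7.40 and 7.56 in replicates 11 and 12, and 6.84, 6.98 and 6.90 in the non-diabetic replicates 13 to 15. The 8 Apoe null arrays read 5.32 to 5.88 in diabetic and 5.57 to 6.01 in non-diabetic mice. In Decr2, replicates 9 and 10 were therefore close to the Apoe null arrays and far from the other 5 arrays labelled Apoe/RAGE null. The brighter probe set of Ager read 4.63 and 4.48 in replicates 9 and 10 and 4.89 to 5.36 on the other 5, with the Apoe null arrays at 4.17 to 4.69, so the same 2 arrays lay within the Apoe null range. The dimmer probe set read 3.29 to 3.50 on all 7. The sources used here do not say whether either probe set covers deleted sequence, so these values leave the genotype unchecked. The genotype of replicates 9 and 10 rests on the label, and so does every diabetes and interaction value that uses them. Apoe read 3.53 to 3.76 against 3.20 to 3.48, which checks nothing because every mouse was Apoe null. Replicate 10 had the lowest median correlation with the other 6 arrays (0.975, against 0.987 to 0.990 for the others). Replicate 12 correlated at 0.990, 0.993 and 0.994 with the 3 non-diabetic arrays. Replicate 13 was alone in its level of adrenal, kidney and sympathetic ganglion genes, with a list mean of 5.15 against 3.49 to 3.95 on the other 6, including Cyp11b1 (6.97) of steroid synthesis in the adrenal cortex. The medians of the larger contrasts are therefore also given without single arrays that moved them by over 1.5 times.

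Over all 45037 probe sets, no difference passed the limma test after Benjamini-Hochberg adjustment (0.00% called, smallest limma adjusted p = 0.457). At an unadjusted p under 0.05 there were 3269 probe sets, or 7.26%. The submitters' own threshold, a B statistic (the log odds of a difference) above 0, was met by 4 probe sets, all higher in diabetic aortas. They were those of Scgb1a1 (4.99 ± 0.84, SE), Myh1 (5.29 ± 0.96), Myhas (4.03 ± 0.71) and 1 of the 3 probe sets of Tnfaip2 (1.26 ± 0.22), the last chosen after its value was seen. Among 18193 genes, 434 were higher in all 4 diabetic than in all 3 non-diabetic arrays (2.39%) and 782 were lower in all of them (4.30%). Positive differences made up 44.2% of genes, and the median difference was -0.02. None of the named differences passed the adjusted test with all 15 arrays in the fit, so higher and lower below describe levels.

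The count of calls depended on which arrays were used. With the spread estimated from the 7 arrays of this comparison alone, 12 probe sets passed (limma adjusted p from 0.00293 to 0.0419), all higher in diabetic aortas and all of skeletal muscle genes, namely Myhas, Myh1, Myh2, Tnni2, Tnnt3, Tnnc2, Trdn, Ryr1, Mylpf and Neb. Without replicate 12, 49 passed, 45 of them higher, and these included Scgb1a1, S100a8, S100a9, Icam1, Cp, C1qb, Cd68 and Cldn5. Without replicates 9 and 10, 0 probe sets passed, though 1723 had an unadjusted p under 0.05. B exceeded 0 for 0 of them. Without replicates 11 and 12, 365 passed, 254 higher and 111 lower. Of the 293 of these with a gene name, 10.9% lay on chromosome 17, against 4.28% of all named probe sets.

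**Figure D1:**
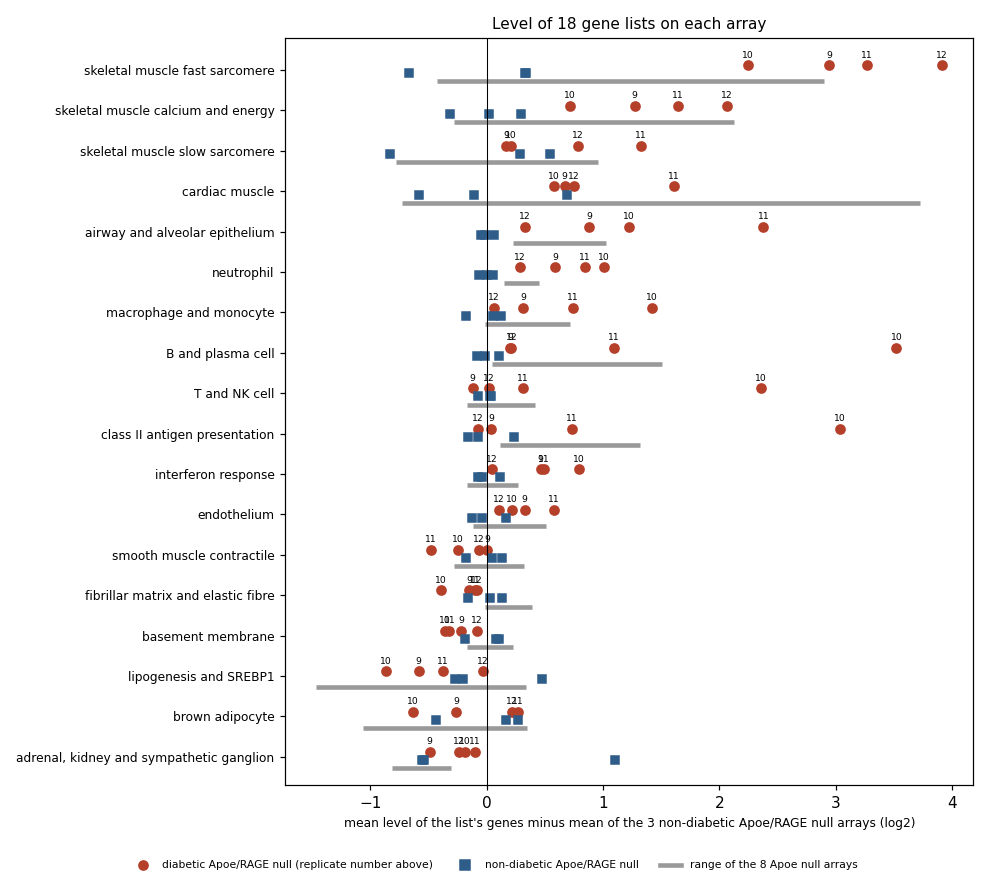
Mean level of the genes of 18 lists on each array, on the x axis in log2 units relative to the mean of the 3 non-diabetic Apoe/RAGE null arrays. Circles with replicate numbers are diabetic arrays, squares non-diabetic arrays, and grey bars span the 8 Apoe null arrays. Fast muscle, airway and neutrophil lists have all 4 diabetic arrays to the right of the squares, replicate 10 lies far right in the lymphocyte and class II lists, and replicate 12 is nearest to the squares in several lists but farthest right in fast muscle.

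Skeletal muscle genes gave the strongest contrast between the groups. Of the 15 measured genes of the fast sarcomere, the contractile unit of fast muscle fibres, 14 had positive differences and 12 were higher in every diabetic array, with a median difference of 3.32 (all genes -0.02). Their mean level was 8.20, 7.50, 8.52 and 9.17 in diabetic replicates 9 to 12 and 5.59, 4.59 and 5.58 in the non-diabetic replicates. The groups did not overlap. Without replicates 9 and 10 the median was 4.05 and 14 of 15 members did not overlap (8.11% of all genes were higher without overlap in that setting). The 8 Apoe null arrays spanned 4.83 to 8.15 in the same measure, from within the non-diabetic range to above the lowest diabetic array.

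Myh1, the heavy chain of fast type 2X fibres, read 10.45, 10.18, 9.54 and 10.25 in diabetic replicates 9 to 12 and 5.75, 3.97 and 4.71 in the non-diabetic replicates. All diabetic arrays were far above all others (2 of its 3 probe sets shared the direction). Myh2, the type 2A heavy chain, read 8.43, 8.15, 7.38 and 8.65 against 4.02, 3.15 and 3.24. Its difference was 4.68 ± 0.93 (SE), with limma adjusted p = 0.457 in the fit of 15 arrays and 0.0109 with the 7 arrays alone. Tnnt3, a fast troponin T, and Mylpf, a fast myosin light chain, differed by 4.42 ± 0.87 and 3.65 ± 0.74 with no overlap. Tnni2 (4.65 ± 0.99) and Tnnc2 (4.70 ± 1.03), the fast troponins I and C, did as well, though both fall outside the rule for named genes and were picked with their values known. Neb, the giant thin filament protein nebulin, differed by 3.32 ± 0.70.

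Myh4 departed from this pattern. It encodes the type 2B heavy chain, and it was chosen after its values were seen, as were Actn3 and Mybpc2. Myh4 read 3.47 and 3.26 in diabetic replicates 9 and 10, 7.72 and 7.98 in replicates 11 and 12, and 3.00, 2.89 and 3.24 in the non-diabetic replicates. Replicates 9 and 10 were therefore barely above the highest non-diabetic array, although Myh1 and Myh2 were as high in them as in replicates 11 and 12. Pvalb, the calcium buffer parvalbumin of fast fibres, read 6.64, 4.74, 8.31 and 8.70 against 4.12, 3.92 and 4.34. Actn3, the alpha-actinin of fast fibres, read 6.70, 5.55, 7.59 and 8.13 against 4.20, 4.10 and 4.50. Mybpc2, the fast myosin-binding protein C, read 4.36, 4.50, 5.80 and 6.79 against 4.13, 3.87 and 3.90. In each of these 4 genes replicates 11 and 12 were the highest arrays, and they are the same arrays that differ from replicates 9 and 10 in Decr2. The difference between the 2 pairs of diabetic arrays was not tested, since no label separates them.

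**Figure D2:**
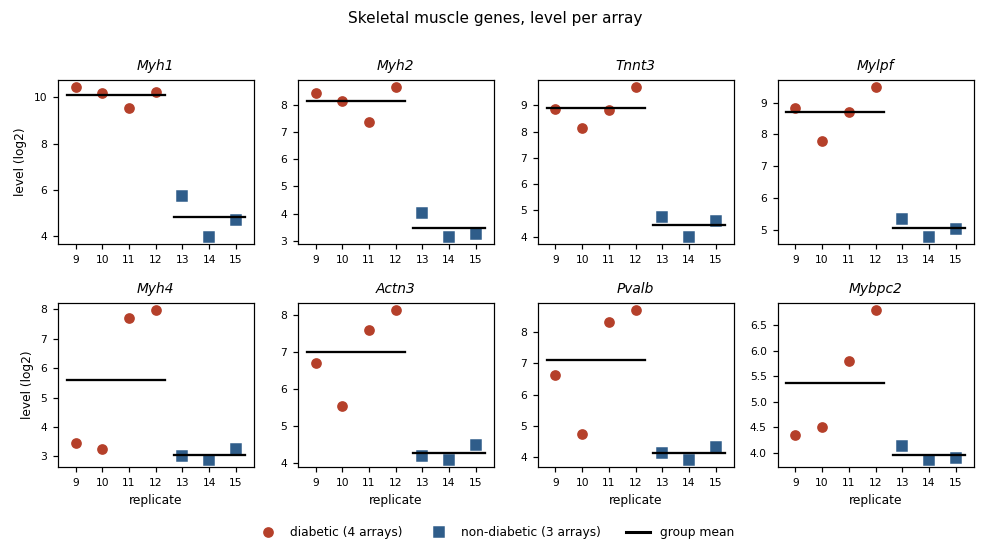
Level (log2, y axis) of 8 skeletal muscle genes on the 7 arrays (x axis, replicate number), circles diabetic, squares non-diabetic, lines the group means. Myh1, Myh2, Tnnt3 and Mylpf are high on all 4 diabetic arrays, whereas Myh4 is high on replicates 11 and 12 and low on 9 and 10, with Actn3, Pvalb and Mybpc2 graded the same way.

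The start regions of the 3 neighbouring myosin genes are shown because they lie side by side on chromosome 11 yet did not share their pattern over the arrays. They run from 250 bases before to 50 bases after the annotated start (RefSeq, GRCm38.p6, plus strand), at chr11:67170777-67171076, chr11:67199852-67200151 and chr11:67237562-67237861. Capitals mark TATAAA and CCAAT on either strand, a match on the opposite strand being read as its reverse complement.
Myh2: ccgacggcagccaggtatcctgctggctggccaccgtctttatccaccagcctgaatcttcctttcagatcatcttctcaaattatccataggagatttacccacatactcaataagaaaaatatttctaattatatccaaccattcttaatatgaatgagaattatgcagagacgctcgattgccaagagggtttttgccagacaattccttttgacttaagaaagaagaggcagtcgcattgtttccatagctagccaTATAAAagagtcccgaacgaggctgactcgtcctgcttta
Myh1: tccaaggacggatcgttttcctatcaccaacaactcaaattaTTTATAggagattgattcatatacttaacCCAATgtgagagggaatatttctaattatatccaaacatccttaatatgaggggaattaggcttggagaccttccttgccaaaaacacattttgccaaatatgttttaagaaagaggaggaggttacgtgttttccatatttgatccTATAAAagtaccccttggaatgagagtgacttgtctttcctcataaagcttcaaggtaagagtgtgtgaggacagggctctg
Myh4: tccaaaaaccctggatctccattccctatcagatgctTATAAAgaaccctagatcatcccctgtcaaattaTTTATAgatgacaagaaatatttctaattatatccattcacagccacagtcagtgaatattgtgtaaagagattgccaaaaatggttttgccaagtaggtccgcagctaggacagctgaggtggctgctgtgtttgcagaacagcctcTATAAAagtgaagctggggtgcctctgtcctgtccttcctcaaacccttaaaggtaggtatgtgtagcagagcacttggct
Counted from 0 at the annotated start, a TATAAA match on the gene's strand starts at -32 in Myh1, at -31 in Myh4 and at 10 in Myh2. The motif occurs in 13.6% of 32851 promoters of this length. The E-box motif CANNTG, present in 72.3% of promoters and not capitalised here, matched 3 times in Myh4 and 0 times in Myh1 and Myh2. A match describes these letters only.

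Genes of muscle calcium handling and energy followed. Of 14 measured, 13 had positive differences and 6 were higher without overlap (2.39% of all genes). The median was 0.91, and 1.64 without replicates 9 and 10. Ryr1, the calcium release channel of skeletal muscle, read 5.32, 5.46, 5.42 and 6.37 against 2.55, 2.60 and 2.93. Every diabetic array was above every non-diabetic array, and replicate 12 was the highest by a wide gap. Atp2a1, the calcium pump of fast fibres, differed by 4.30 ± 0.90 (SE), with replicate 10 the lowest diabetic array at 7.0. The slow sarcomere list had a smaller median of 0.40 (0.67 without replicate 15), led by Mybpc1 (2.68 ± 0.62) and Myh7 (1.58 ± 0.58), the heavy chain of slow and cardiac muscle. Myogenic regulators such as the satellite cell and muscle differentiation factors had a median of 0.05, with 5 of 8 positive and 0 higher without overlap.

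Cardiac genes were mostly on the higher side, with wider spread. Of 13 measured, 11 had positive differences and 5 were higher without overlap (2.39% of all genes). The median of 0.31 depended on single arrays. It was 0.08 without replicate 11, 0.12 without 14, 0.53 without 13 and 0.79 without 15. Myl7, the atrial light chain, read 8.70, 8.43, 8.08 and 8.19 against 4.19, 6.50 and 7.22 (difference 2.38, and 1.49 without replicate 13). Nppa, the atrial natriuretic peptide, read 6.16, 5.24, 8.56 and 5.71 against 3.45, 3.98 and 4.41. Replicate 11 stood out in Nppa, and the list means were 6.54, 6.45, 7.48 and 6.62 against 5.76, 5.29 and 6.56, so replicates 9 and 10 did not exceed replicate 15 as a set. The Apoe null arrays spanned 5.14 to 9.60. How much of any difference in vessel genes these muscle lists carry was not tested.

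Airway secretory genes were the next group. Of 19 measured airway and alveolar genes, 15 had positive differences and 9 were higher without overlap, against 2.39% of all genes. The median was 0.70, with 0.39 without replicate 11, 0.51 without replicates 11 and 12, and 0.72 without replicates 9 and 10. Scgb1a1, the club cell secretoglobin, read 8.42, 8.94, 10.90 and 5.59 in diabetic replicates 9 to 12 and 3.12, 3.31 and 3.98 in the non-diabetic replicates. Its difference of 4.99 ± 0.84 (SE) had the smallest p of all genes (limma adjusted p = 0.457). Without replicate 12, its lowest diabetic array, the difference was 5.95 (limma adjusted p = 0.003), and without replicates 9 and 10 it was 4.77 (limma adjusted p = 0.999). Bpifa1, an antimicrobial protein of the upper airway, read 7.85, 8.25, 11.19 and 5.12 against 3.04, 3.04 and 3.65. Replicate 11 was the highest and replicate 12 the lowest diabetic array in both genes.

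Other secretory genes had the same order. Scgb3a1 read 6.55, 7.20, 10.33 and 5.51 against 5.19, 5.08 and 4.89, and Scgb3a2 5.75, 6.62, 9.66 and 4.84 against 4.28, 4.48 and 4.25. Without replicate 11 their differences of 2.35 and 2.38 were 1.37 and 1.40. Reg3g, a secreted lectin chosen after its values were seen, reached 9.44 in replicate 11 and 3.19 in replicate 12, against 2.58 to 3.10 in non-diabetic arrays. Muc5b, an airway mucin, differed by 0.70 ± 0.15 (SE). Markers of other airway cells varied, and they are named here after a look at their values. Aqp5, a water channel of alveolar type I cells and airway glands, read 4.10, 4.18, 5.20 and 3.41 against 3.37, 3.58 and 3.47. The groups overlapped, and Aqp5 did not pass with all arrays. Without replicates 11 and 12, its highest and lowest diabetic arrays, the difference was 0.67 (limma adjusted p = 0.0325) and rested on replicates 9 and 10. Sftpc of alveolar type II cells read 3.36 to 3.52 against 3.47 to 3.49, Foxj1 of ciliated cells 3.10 to 3.28 against 3.26 to 3.45, and the lung regulator Nkx2-1 differed by 0.00 ± 0.10. The list mean was 4.50, 4.84, 6.00 and 3.95 against 3.57, 3.61 and 3.68, and the Apoe null arrays spanned 3.85 to 4.65, above all 3 non-diabetic double null arrays.

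Neutrophil genes were mostly on the higher side in diabetic aortas. Of 14 measured, 13 had positive differences and 3 were higher without overlap (2.39% of all genes), with a median of 0.20. At an unadjusted p under 0.05, 5 were higher and 1 was lower (3.74% and 3.97% of all genes). The list mean was 4.06, 4.48, 4.32 and 3.76 against 3.41, 3.48 and 3.53. The Apoe null arrays spanned 3.62 to 3.92, above all 3 non-diabetic double null arrays, and diabetic replicate 12 lay within that span. S100a8 read 5.44, 6.99, 5.86 and 4.40 against 3.06, 2.94 and 3.12, and its partner S100a9 read 5.51, 6.99, 5.79 and 4.60 against 3.55, 3.19 and 3.48. Both are ligands of RAGE, the receptor these mice are labelled as lacking. The diabetic arrays kept the same order in both, with replicate 10 highest and replicate 12 lowest, and no overlap with the controls. The differences were 2.63 ± 0.52 and 2.32 ± 0.45 (SE, limma adjusted p = 0.457 for each). They were 3.06 and 2.69 without replicate 12 (limma adjusted p = 0.0364 and 0.0331), a setting that drops the lowest diabetic array of both genes. Without replicates 9 and 10 they were 2.09 and 1.79 (limma adjusted p = 0.999 for each). In the 8 Apoe null arrays the same contrast was 0.44 ± 0.48 for S100a8 and 0.06 ± 0.42 for S100a9, and the tests of the difference between genotypes gave limma adjusted p = 0.675 for both (unadjusted 0.0074 and 0.0024). Ltf, lactoferrin, which airway glands also make, followed the airway order instead, with 4.42, 5.36, 8.56 and 3.86 against 3.69, 3.49 and 3.80 (difference 1.89, and 0.89 without replicate 11). Lcn2, lipocalin 2, read 5.84, 6.52, 4.35 and 3.46 against 3.34 to 3.60, high in replicates 9 and 10.

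**Figure D3:**
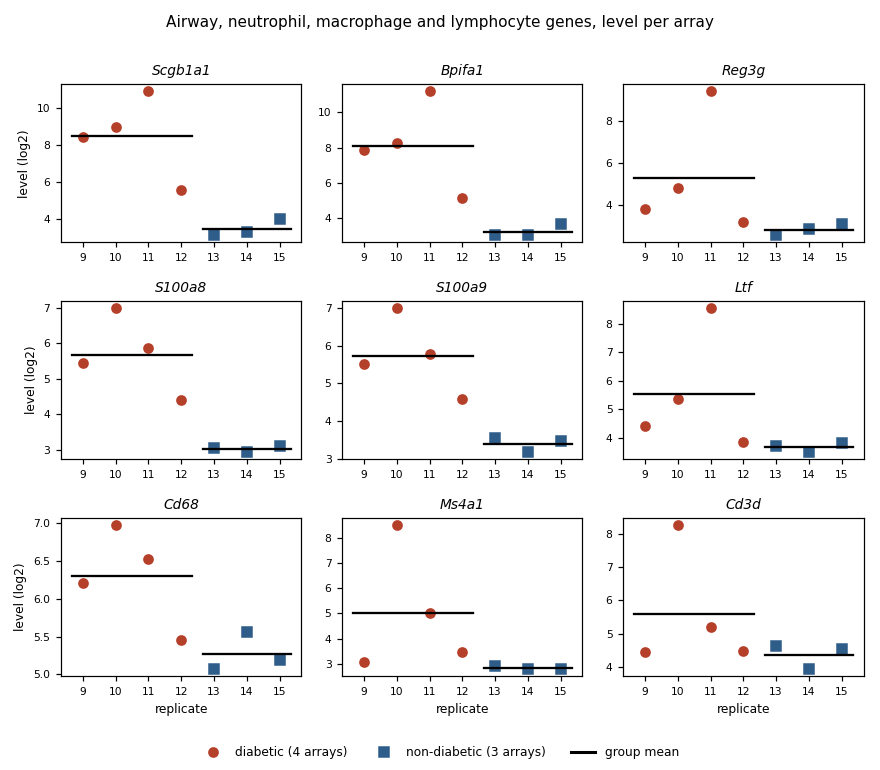
Level (log2, y axis) of 9 airway, neutrophil, macrophage and lymphocyte genes on the 7 arrays (x axis, replicate number), circles diabetic, squares non-diabetic, lines the group means. Scgb1a1, Bpifa1, Reg3g and Ltf peak on replicate 11, the other 5 genes on replicate 10, and replicate 12 is the lowest diabetic array in 7 of the 9.

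The start regions of S100a8 and S100a9 are printed because both genes ranked the diabetic arrays alike. They lie near each other on chromosome 3, at chr3:90668821-90669120 (plus strand) and chr3:90695672-90695971 (minus strand) in GRCm38.p6 from RefSeq, and are written along each gene's strand with TATAAA in capitals.
S100a8: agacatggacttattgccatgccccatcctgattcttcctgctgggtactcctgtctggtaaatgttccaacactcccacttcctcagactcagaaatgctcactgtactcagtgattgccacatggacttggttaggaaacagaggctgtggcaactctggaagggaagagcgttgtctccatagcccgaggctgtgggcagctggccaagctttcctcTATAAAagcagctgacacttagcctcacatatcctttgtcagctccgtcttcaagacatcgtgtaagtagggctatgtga
S100a9: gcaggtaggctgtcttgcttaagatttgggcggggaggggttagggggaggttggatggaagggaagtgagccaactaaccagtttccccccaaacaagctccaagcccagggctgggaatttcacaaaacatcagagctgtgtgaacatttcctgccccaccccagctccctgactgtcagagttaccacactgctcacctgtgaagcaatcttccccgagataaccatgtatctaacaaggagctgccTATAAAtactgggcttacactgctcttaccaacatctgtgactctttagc
TATAAA starts at -30 in S100a8 and at 0 in S100a9, counted as above.

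All 20 measured macrophage and monocyte genes had positive differences, and 14 reached an unadjusted p under 0.05 (3.74% of all genes did so on the higher side). The median was 0.63, and 0.39 without replicate 10, where 19 of 20 were positive. Cd68, a lysosomal protein of macrophages, read 6.21, 6.98, 6.53 and 5.46 against 5.07, 5.56 and 5.19. C1qb, a chain of complement C1q, read 9.06, 9.66, 9.00 and 8.10 against 8.01, 8.01 and 8.11, and Lyz2, lysozyme of myeloid cells, read 10.05, 11.53, 10.62 and 9.39 against 9.08, 9.25 and 9.49. In these genes replicates 9 to 11 were above all controls, whereas replicate 12 lay among them. Ccr2, the chemokine receptor of inflammatory monocytes, was the 1 member without overlap (0.67 ± 0.24, SE). Pirb, an inhibitory receptor of myeloid and B cells, read 4.05, 4.46, 4.13 and 3.89 against 3.42, 3.49 and 3.61, and its difference of 0.63 ± 0.13 was among the 15 leading higher genes.

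Lymphocyte genes differed on 1 array above all. The B and plasma cell list read 3.64, 6.96, 4.53 and 3.65 in diabetic replicates 9 to 12 and 3.54, 3.35 and 3.42 in the controls. Its median difference of 1.37 was 0.46 without replicate 10. Ms4a1, the B cell antigen CD20, reached 8.51 and the antibody joining chain Jchain 10.85 in replicate 10. Replicate 11 was second at 5.00 and 7.54, and the remaining arrays stayed at or under 3.47 and 4.47. T and NK cell genes gave a median of 0.57 with and 0.06 without replicate 10, and Cd3d, part of the T cell receptor complex, read 8.26 there against 3.95 to 5.20 elsewhere. The class II median fell likewise, from 0.95 to 0.24, though all 8 measured genes stayed positive without replicate 10. With all 7 arrays 2 of the 8 were higher without overlap (2.39% of all genes). Cd74, the class II chaperone, read 8.08, 10.97, 9.01 and 7.84 against 7.75, 8.42 and 7.87, so that the groups overlapped. Cell cycle genes had a list mean of 4.78 in replicate 10 against 3.78 to 3.91 on the other 6 arrays.

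Interferon response genes had positive differences in all 17 measured members (44.2% of all genes), and in 16 without replicates 9 and 10. The median was 0.42, and 0.23 without replicate 10. Iigp1, an interferon-inducible GTPase, read 8.44, 9.02, 8.21 and 7.62 against 7.40, 7.60 and 7.0. Rsad2, the antiviral protein viperin, read 8.19, 8.34, 8.69 and 7.68 against 7.34, 7.36 and 7.07. These were the only 2 of the 17 members without overlap (2.39% of all genes), with differences of 0.99 ± 0.30 and 0.97 ± 0.35 (SE). Ifit1 (0.76 ± 0.26) and Irf9 (0.53 ± 0.18) overlapped because replicate 14 exceeded replicate 12. The macrophage list read 7.03, 8.14, 7.46 and 6.78 against 6.54, 6.77 and 6.84, with replicate 10 highest and replicate 12 below 1 control, and its part in the interferon result was not tested.

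**Figure D4:**
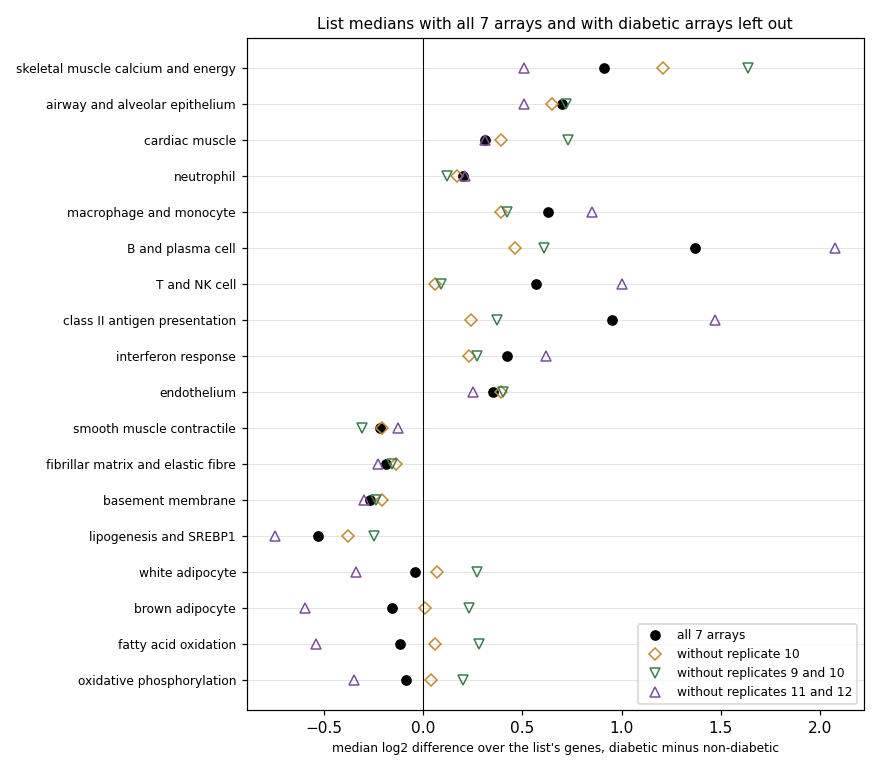
Median log2 difference, diabetic minus non-diabetic (x axis), of the genes of 18 lists with all 7 arrays (filled circles) and with diabetic arrays left out (open symbols). Lymphocyte and class II medians shrink without replicate 10, fat and mitochondrial medians change sign without replicates 9 and 10, and the airway, endothelial, matrix and smooth muscle medians keep their side under each of these settings.

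Among the lists of vessel wall genes, endothelial genes were on the higher and matrix and smooth muscle genes on the lower side. Whether these differences lie in the wall or in attached tissue cannot be told from RNA of the whole aorta. Of 15 endothelial genes, 13 had positive differences and 3 were higher without overlap (2.39% of all genes). The median was 0.35, with 0.20 without replicate 14, 0.21 without replicate 11 and 0.40 without replicates 9 and 10. Cldn5, a tight junction protein, read 7.04, 7.59, 7.02 and 6.35 against 6.20, 5.94 and 6.09, a difference of 0.92 ± 0.23 (SE). Ece1, the endothelin-converting enzyme, read 9.55, 8.94, 9.18 and 8.94 against 8.56, 8.80 and 8.80. Egfl7, a secreted endothelial factor, differed by 0.49 ± 0.15, with replicate 12 below the highest control. Pecam1, the classical endothelial adhesion marker, named for its role and not by the rule, differed by -0.03 ± 0.20. Icam1, the leukocyte adhesion molecule of activated endothelium, read 7.39, 7.71, 7.23 and 5.99 against 6.28, 6.09 and 6.29, so replicates 9 to 11 were about 1 log2 unit above the controls and replicate 12 below all of them. The copper-binding acute phase protein Cp had the same order (9.35, 9.78, 9.17 and 8.17 against 8.34, 8.30 and 8.58), and all 8 of its probe sets were positive. Without replicates 9 and 10 the differences were 0.39 ± 0.28 for Icam1 and 0.26 ± 0.22 for Cp.

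Of 16 smooth muscle contractile genes, 15 had negative differences, with a median of -0.22 (55.8% of all genes were negative). It was -0.12 without replicate 11 and -0.35 without replicate 15. The exception was Des, desmin, an intermediate filament of every muscle type, at 8.41, 8.17, 8.15 and 8.53 against 8.10, 7.70 and 8.02. The differences were small against the spread, and 1 gene was lower without overlap (4.30% of all genes). It was Acta2, the smooth muscle actin, chosen after its values were seen, at 13.19 to 13.29 against 13.33 to 13.35. Actg2, the enteric smooth muscle actin (-0.35 ± 0.20, SE), and Cnn1, calponin (-0.33 ± 0.21), overlapped. The list mean was 11.22, 10.97, 10.74 and 11.15 against 11.35, 11.26 and 11.04, so replicates 9 and 12 lay within the control range.

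Matrix genes were on the lower side as well. Of 23 genes of fibrillar matrix and elastic fibres, 18 had negative differences (55.8% of all genes) and 2 were lower without overlap (4.30% of all genes). The median was -0.19, and -0.33 without replicate 15. On the lower side 6 reached an unadjusted p under 0.05 (3.97% of all genes). Mfap4, a microfibril-associated protein, read 9.59, 9.27, 9.40 and 9.61 against 10.02, 10.10 and 9.68. Serpinh1, the collagen chaperone, read 10.23, 9.94, 10.47 and 10.53 against 10.75, 10.82 and 10.62. Sparc (-0.39 ± 0.13, SE), Col5a2 (-0.42 ± 0.16) and Col6a3 (-0.40 ± 0.18) overlapped. Basement membrane genes had 12 of 14 negative differences and a median of -0.27. Col15a1, a basement membrane collagen, differed by -0.64 ± 0.20 and Lama4, the endothelial laminin chain, by -0.43 ± 0.17, the latter without overlap.

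Genes that were lower on all 4 diabetic arrays came from varied families. Camta1, a calmodulin-binding transcription activator, read 6.64, 6.25, 6.65 and 6.70 against 7.29, 7.51 and 7.33, and all 4 of its probe sets were negative. Angptl7, a secreted angiopoietin-like protein, read 6.13, 5.67, 5.96 and 6.64 against 6.80, 7.32 and 7.19. Its difference of -1.0 ± 0.21 (SE) was -1.18 without replicate 12, with limma adjusted p = 0.0384. Ppp1r36, a protein phosphatase subunit, read 3.99, 4.15, 4.12 and 4.33 against 5.01, 5.05 and 4.70. The groups did not overlap in any of these 3 genes, though replicate 12 came close to the lowest control in Angptl7. Fibin, a secreted protein named for fin bud initiation in fish, differed by -0.91 ± 0.23, and Wif1, a secreted inhibitor of Wnt ligands, read 6.30, 5.90, 6.36 and 6.51 against 7.56, 7.17 and 6.99. Ank, which exports pyrophosphate and thereby restrains calcification, read 8.18, 8.23, 8.35 and 8.60 against 8.70, 8.76 and 9.04. Tmem38b, a cation channel of the endoplasmic reticulum, differed by -0.68 ± 0.18, Osbpl6, an oxysterol-binding protein relative, by -0.52 ± 0.12, and Mipol1, for which 2 of 4 probe sets were negative, by -0.58 ± 0.13.

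Higher genes outside the lists included Cilp, a matrix protein of cartilage and fibrous tissue, at 7.89, 7.93, 7.90 and 7.27 against 6.44, 6.40 and 7.14. Slc25a34, a mitochondrial carrier, read 7.29, 6.91, 7.82 and 7.06 against 6.31, 6.40 and 5.93. Tbx1, a T-box factor of outflow tract and pharyngeal muscle development, read 5.82, 5.90, 5.49 and 5.55 against 4.85, 5.22 and 4.91. These 3 genes did not overlap, with differences of 1.09 ± 0.21, 1.06 ± 0.21 and 0.69 ± 0.13 (SE, limma adjusted p = 0.457 for each). Chac1, which degrades glutathione in the stress response of the endoplasmic reticulum, read 6.14, 5.98, 6.39 and 6.04 against 5.30, 5.60 and 5.44. Its list had a median of 0.13 (0.06 without replicate 10), with 14 of 18 positive.

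Lipogenesis genes were mostly on the lower side in diabetic aortas. Of 18 measured, 13 had negative differences (55.8% of all genes) and 3 were lower without overlap (4.30% of all genes). The median was -0.53, and -0.27 without the non-diabetic replicate 15 alone. Without replicates 9 and 10 it was -0.25, with 10 of 18 negative, near the share over all genes with 7 arrays. The list mean was 9.33, 9.05, 9.54 and 9.88 against 9.64, 9.71 and 10.39, so replicate 12 lay within the control range. Fasn, fatty acid synthase, read 10.97, 10.34, 10.39 and 11.76 against 11.88, 11.83 and 12.54. Slc25a1, the carrier that exports citrate from mitochondria for lipid synthesis, read 7.97, 7.75, 8.19 and 8.88 against 8.90, 8.92 and 9.99. Neither overlapped, but replicate 12 lay just under the lowest control in both genes, and replicate 15 was the highest array in both. The differences were -1.22 ± 0.32 and -1.07 ± 0.28 (SE, limma adjusted p = 0.674). Me1 (-1.05 ± 0.28), the malic enzyme that supplies NADPH, and Acss2 (-1.11 ± 0.37), acetyl-CoA synthetase, overlapped, and Acaca (-0.85 ± 0.30), acetyl-CoA carboxylase, did not. Without replicate 15 the differences were -0.71 for Slc25a1, -0.67 for Me1, -0.58 for Acss2 and -0.45 for Acaca. In Apoe null aortas, which share no array with these, the list had a median of -1.18 and Fasn differed by -2.33 ± 0.29. The test of that difference between genotypes gave limma adjusted p = 0.675 for Fasn (1.11 with unadjusted p = 0.0214).

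The start regions of Fasn and Slc25a1 are printed because they were the lipogenesis genes with the smallest p that did not overlap. They are the minus strand of chr11:120824498-120824797 and chr16:17928170-17928469 in GRCm38.p6 from RefSeq, with CCAAT on either strand in capitals.
Fasn: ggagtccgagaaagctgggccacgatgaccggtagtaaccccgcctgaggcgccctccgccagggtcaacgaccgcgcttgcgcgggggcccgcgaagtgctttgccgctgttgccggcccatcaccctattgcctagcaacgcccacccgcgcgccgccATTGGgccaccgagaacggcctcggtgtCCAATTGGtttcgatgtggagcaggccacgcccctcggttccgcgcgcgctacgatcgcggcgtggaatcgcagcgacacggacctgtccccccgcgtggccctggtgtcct
Slc25a1: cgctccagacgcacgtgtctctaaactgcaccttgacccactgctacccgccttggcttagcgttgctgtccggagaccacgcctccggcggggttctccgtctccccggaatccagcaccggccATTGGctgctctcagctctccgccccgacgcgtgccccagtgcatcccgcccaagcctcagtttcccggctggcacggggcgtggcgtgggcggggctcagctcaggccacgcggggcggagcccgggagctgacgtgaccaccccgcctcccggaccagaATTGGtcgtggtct
CCAAT matched 3 times in Fasn and 2 times in Slc25a1, and occurs in 37.4% of all promoters. In Fasn 2 of the matches, on opposite strands, overlap each other and the 1 CANNTG match. TCACNCC, a form of the sterol regulatory element, matched in neither window and occurs in 15.6%.

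Fat and mitochondrial genes split the diabetic group. Fatty acid oxidation genes had a list mean of 10.33 and 10.05 in replicates 9 and 10 and 11.06 and 11.08 in replicates 11 and 12, against 10.39, 10.91 and 11.05 in the controls. All 15 differences were negative with the 4 arrays (median -0.12), and all 15 were positive without replicates 9 and 10 (median 0.28). Oxidative phosphorylation went from 15 of 19 negative (median -0.09) to 19 of 19 positive (0.20). Brown adipocyte genes had a median of -0.16 and white adipocyte genes of -0.04. Without the non-diabetic replicate 13 the medians were -0.32 for fatty acid oxidation, -0.21 for oxidative phosphorylation, -0.40 for brown and -0.20 for white adipocyte genes. In the same order they were 0.06, 0.04, 0.01 and 0.07 without replicate 10 alone. They were -0.01, 0.03, 0.02 and 0.04 without the non-diabetic replicate 15, so the sign of these medians depended on single arrays. Ucp1, the uncoupling protein of brown fat, read 11.26, 10.90, 12.20 and 12.31 against 11.70, 12.18 and 12.20, and Cidea, a lipid droplet protein of brown fat, 11.26, 10.99, 11.78 and 12.14 against 11.41, 11.98 and 12.13. In both genes replicates 9 and 10 lay below every control, and replicate 13 was the lowest control.

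Hormone and clock genes varied little as lists, with medians of 0.01 for insulin and IGF signalling, 0.06 for the circadian clock, -0.08 for glucocorticoid response and 0.03 for targets of fasting factors. Single members had differences of opposite sign. Igfbp2, an IGF-binding protein, read 4.69, 5.08, 4.14 and 4.95 against 5.37, 5.43 and 5.16, and Igfbp6 differed by 0.40 ± 0.16 (SE). Nr1d1, the clock repressor REV-ERB alpha, read 7.70, 7.25, 8.18 and 7.27 against 6.94, 6.78 and 7.17. Nfil3, a clock output repressor, read 5.61 to 6.22 against 5.89, 7.40 and 6.78. G0s2, an inhibitor of fat breakdown, differed by -0.62 ± 0.33 and Acot1, an acyl-CoA thioesterase, by 0.52 ± 0.24, with overlap in both.

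Whether the response to diabetes differed from that of Apoe null aortas was tested as an interaction. No probe set passed (0.00%, smallest limma adjusted p = 0.675), 3251 (7.22%) had an unadjusted p under 0.05, and 0 had B above 0. The 10 genes with the smallest p all had limma adjusted p = 0.675. Ereg, which encodes the EGF receptor ligand epiregulin, read 4.56, 4.12, 4.30 and 4.71 in diabetic and 4.99, 5.43 and 5.39 in non-diabetic double null aortas, a difference of -0.85 ± 0.24 (SE), against 0.80 ± 0.23 in Apoe null aortas. Tshz3, a zinc finger regulator of smooth muscle in the ureter, differed by -0.26 ± 0.13 and 0.59 ± 0.12, and Pip5k1b, a kinase that makes a phosphoinositide of the plasma membrane, by -0.37 ± 0.12 and 0.45 ± 0.12. The double null groups did not overlap in any of these 3 genes. Camta1 (-0.82 ± 0.17 against 0.19 ± 0.15) and Tbx1 (0.69 ± 0.13 against -0.13 ± 0.12) were also among the 10, as were Ngp, a neutrophil granule protein (0.44 ± 0.12 against -0.41 ± 0.11), and Eepd1 (0.09 ± 0.10 against -0.63 ± 0.10, with 1 of 2 probe sets positive in the double null).

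**Figure D5:**
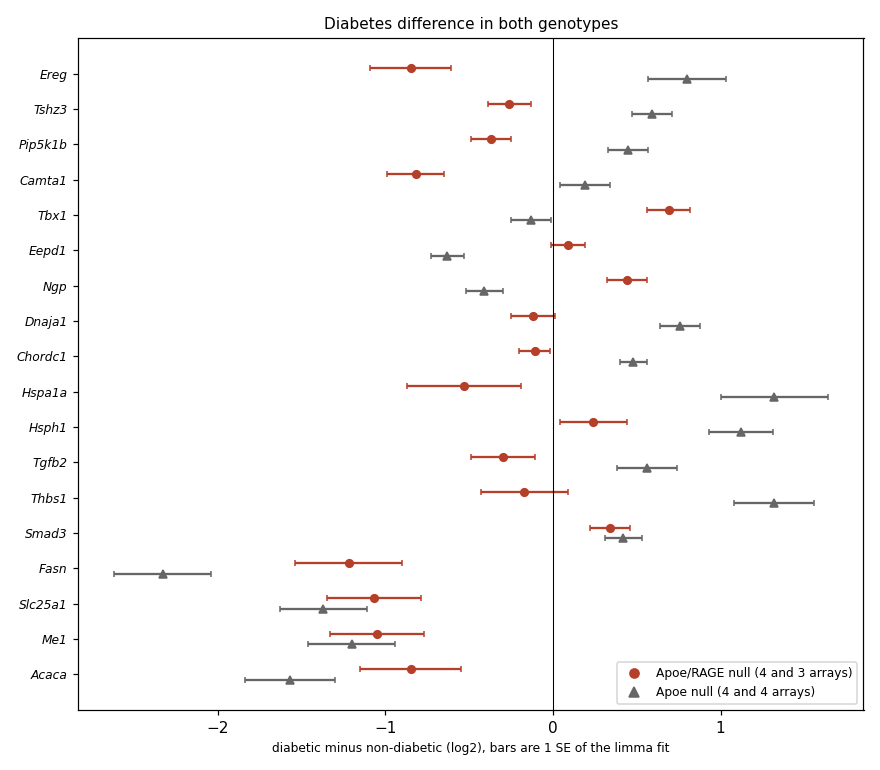
Log2 difference between diabetic and non-diabetic aortas (x axis, bars 1 SE of the limma fit) in Apoe/RAGE null (circles) and Apoe null mice (triangles) for 18 genes. Ereg, Tshz3 and Pip5k1b lie on opposite sides of 0, and the 4 lipogenesis genes lie below 0 in both. The chaperone genes Dnaja1, Chordc1 and Hspa1a lie below 0 in the double null and above 0 in Apoe null mice, whereas Hsph1 lies above 0 in both.

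Some genes of TGF-beta signalling, which controls matrix production, are given here in both genotypes, the double null first, as single genes with no count over their pathway. Tgfb2, a TGF-beta ligand, differed by -0.30 ± 0.19 (SE) and 0.56 ± 0.18, and Thbs1, thrombospondin, an activator of latent TGF-beta, by -0.17 ± 0.26 and 1.32 ± 0.24 (1 of its 2 probe sets was negative in the double null). Both were chosen after their values were seen. Smad3, a signal transducer of the pathway, was higher in both, at 0.34 ± 0.12 and 0.42 ± 0.11. Postn (-0.39 ± 0.16), a matricellular target, and Ltbp2 (-0.24 ± 0.09), a latent TGF-beta binding protein relative, overlapped in the double null.

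Heat shock genes had 6 of 14 members at an unadjusted interaction p under 0.05 (8.57% of all genes), all with the double null below. Their median differences were -0.11 in the double null (-0.10 to -0.03 with single arrays left out, and 0.0074 without replicates 9 and 10) and 0.30 in Apoe null aortas, where 49.8% of all genes were positive. Dnaja1, a co-chaperone of the HSP70 family, read 9.13, 9.01, 9.64 and 9.11 against 9.33, 9.34 and 9.35, a difference of -0.12 ± 0.13 (SE) against 0.76 ± 0.12 in Apoe null aortas (1 of its 3 probe sets was positive in the double null). Chordc1, a partner of HSP90, differed by -0.11 ± 0.09 and 0.48 ± 0.08. Hspa1a, an inducible HSP70 gene on chromosome 17, differed by -0.53 ± 0.34 and 1.32 ± 0.32, and Hsph1, an HSP70 exchange factor, by 0.24 ± 0.20 and 1.12 ± 0.19. Hspb8, a small heat shock protein, read 8.88 to 9.25 against 9.29 to 9.37 in the double null, without overlap. Across all genes the differences in the 2 genotypes correlated weakly (Pearson r = 0.27, Spearman rank correlation 0.13 over 18193 genes, which are not independent replicates).

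Glo1, the enzyme that detoxifies the glycating agent methylglyoxal, differed by -0.07 ± 0.16 (SE), with 9.27, 9.19, 9.56 and 9.31 against 9.55, 9.34 and 9.31. The list of RAGE and its ligands had 9 of 12 positive differences (44.2% of all genes) and a median of 0.07. Its 2 members higher without overlap (2.39% of all genes) were S100a8 and S100a9, which the neutrophil list also holds. Other lists had small medians, namely 0.00 for NADPH oxidase and antioxidant genes, 0.12 for vascular inflammation, 0.24 for complement and acute phase genes (0.10 without replicate 10), -0.22 for cholesterol synthesis, -0.06 for Wnt antagonists and 0.00 for adventitial fibroblasts. The median was 0.32 for the 5 measured erythrocyte genes, -0.13 for thymocyte genes, 0.28 for cell cycle genes (0.05 without replicate 10), 0.11 for immediate early genes, 0.09 for nerve, 0.07 for lipid handling in atherosclerosis and 0.05 for mesothelium. It was 0.02 for mast cells, 0.01 for matrix proteases, -0.01 for the proteasome, -0.03 for adrenal, kidney and ganglion genes and -0.09 for glycolysis. Medians of this size changed with single arrays, that of mesothelium from -0.21 without replicate 13 to 0.49 without replicate 15.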

How the data were processed

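RNA of 15 mouse aortas was hybridized to Affymetrix arrays, 1 per mouse, per the labels' protocols. Per the submitters' processing notes, the authors used RMA, whose version is not given, and deposited log2 values. Whether all arrays were normalized in 1 run is unclear from the design text. Array medians spanned 4.35 to 4.42. No detection calls are used here, so low levels may be background, and the number of arrays limits the precision.

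After 64 control probe sets were left out, 45037 entered the limma test (limma 3.58.1, R 4.3.3), which fitted 1 mean per group over all 15 arrays with empirical Bayes moderation and Benjamini-Hochberg adjustment at 0.05. Symbols came from the platform annotation, and 34741 of 34945 probe sets with 1 gene matched a reference table by Entrez ID, while 932 had several genes and 9160 none named here. The probe set with the highest mean stood for each of 18193 genes. Groups came from the labels. The fit was tested on simulated data.

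The comparison, the 48 gene lists (705 genes, 651 measured) and the rules were chosen with earlier results of these data known. Named genes were the 15 with the smallest p on each side among those without overlap, 5 members of each list, the 10 with the smallest interaction p, and Ager, Apoe, Decr2 and Glo1, with exceptions stated. Alternatives were the threshold, normalization, variance model, array weights, filtering, the probe set per gene and arrays left out. 1 list is not reported here. Counts of positive members without arrays were added after the data were seen. Plots used matplotlib 3.10.9 and Python 3.11.15.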

Additional observations from a re-analysis of the deposited data

Results flagged for a closer look

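An array of the diabetic group lay far from the other 3 in 4 of 101 named genes and 2 of 47 gene lists, where chance gives about 1 in 20. In Ryr1 replicate 12 read 6.37, with the nearest array at 5.46. In Egfl7 it read 7.07 with the nearest at 7.56, and in Cilp 7.27 with the nearest at 7.89. Camta1 read 6.25 in replicate 10 and 6.64 in the nearest array. The cardiac muscle list had a mean of 7.48 in replicate 11, with the next at 6.62, and the cell cycle list 4.78 in replicate 10, with the next at 3.91.

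In 3 of the named genes every diabetic array was below every non-diabetic array in Apoe/RAGE null aortas and above every one in Apoe null aortas. All 3 were among the 10 genes picked for the smallest interaction p, a choice that favours such opposite patterns. No count of the pattern over all genes is given. The interaction, double null minus Apoe null, was -0.85 for Tshz3, -1.65 for Ereg and -0.82 for Pip5k1b (limma adjusted p = 0.675 for each). In Apoe null aortas Ereg spanned 5.53 to 6.27 in diabetic and 4.41 to 5.49 in non-diabetic mice, Tshz3 6.48 to 6.96 and 6.05 to 6.41, and Pip5k1b 5.97 to 6.39 and 5.59 to 5.89.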

How the results depend on the processing

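With all arrays, quantile normalization, median centring, a trended variance, array weights, 1 probe set per gene and leaving out the dimmer probe sets each left 0 calls for diabetes and for the interaction. For diabetes 12 probe sets passed with the 7 arrays alone, 4 by B above 0, 365 without diabetic replicates 11 and 12, and 0 to 49 with single arrays left out, the highest without replicate 12. For the interaction 8 passed without replicates 11 and 12 and 0 with any single array left out. Genes without overlap numbered 618 to 1441 higher and 1078 to 1906 lower with single arrays left out, the highest of both without replicate 12, 1476 and 2067 without replicates 9 and 10, and 2491 and 3759 without 11 and 12, fewer arrays making overlap rarer.

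Of 101 named genes, 94 kept their direction under every alternative run. Of 47 list medians 26 kept 1 sign throughout and 21 changed sign under 1 or more alternatives, among them the fat, mitochondrial, heat shock and RAGE ligand medians. Without replicates 9 and 10 the difference was 0.038 for Dnaja1, 0.23 for Ucp1, 0.11 for Cidea, 0.19 for Ager, 0.57 for Decr2, 0.035 for Glo1 and 0.054 for the proteasome median. Array weights gave 0.012 for Ager and 0.0028 for Glo1. Averaging probe sets gave -0.016 for Eepd1 and -0.074 for the insulin and IGF median. Single arrays left out moved Ager from -0.28 to 0.015, Glo1 from -0.15 to 0.0058 and the insulin and IGF median from -0.036 to 0.065. The cause of these changes was not tested. No paired analysis was possible because each replicate number, from 1 to 15, belongs to 1 mouse.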
